A study of Mus musculus with 2 samples.

Results

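The receptor chains through which B cells sense interleukins and interferons were described in splenic B cells of wild-type mice. The set comprised 10 genes, Il4ra, Il2rg, Il21r, Il10ra, Il10rb, Il7r, Ifngr1, Ifngr2, Ifnar1 and Ifnar2, taken as every probe set that the platform annotation assigned to 1 of them alone. Of these, 9 genes were found, with 16 probe sets, among 12393 genes named by the annotation in this way. No probe set was named Il2rg in the annotation used, so this gene, which encodes the γ chain shared by several interleukin receptors, has no value here. The cells were primary cells positive for surface IgM and IgD, sorted by flow cytometry from the spleen, and carried no genetic modification. The series was designed to set them against cells lacking serum response factor, which were not analysed here, so the data are 2 arrays of 1 group, replicates 1 and 2 in accession order. Age and strain of the mice are not used here. With 1 group, no test was possible. By its brightest probe set Xist, the RNA of the inactive X chromosome, gave 740 on replicate 1 and 15.3 on replicate 2. Eif2s3y, a Y-linked gene, gave 3.4 and 249. Of the other Y-linked genes, Kdm5d gave 88.4 and 176 by its brightest probe set. Uty was low on both arrays, with 44.8 and 57.7 by 1 probe set and 58.8 and 4.8 by the other. By Xist and Eif2s3y, the arrays hold RNA of mice of different sex, female for replicate 1 and male for replicate 2. Sex cannot be told apart from any other difference between the arrays, technical ones included.

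Each of these receptors is built from at least a ligand-binding chain and a signalling partner, and none has an enzyme domain of its own. The chains instead hold Janus kinases on their cytoplasmic tails, which phosphorylate STAT transcription factors once a ligand brings the chains together. In mature B cells, interleukin 4 promotes class switching to IgG1 and IgE, interleukin 21 drives germinal centre and plasma cell differentiation, interferon γ promotes switching to IgG2 isotypes, type I interferon lowers the threshold of activation, and interleukin 7 acts mainly on precursors.

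Signals were set against a floor on each array, set where 90% of the probe sets for genes of other organs lay below it. The floors were 149 for replicate 1 and 104 for replicate 2, and 4 of the 52 genes of other organs (7.69%) passed both. Because affinity varies from probe to probe, a signal was read only against its floor and against the same probe set on the other array. A gene was above the floor on both arrays if 1 of its probe sets was, and its difference was taken from its brightest probe set by mean log2 value. Over the 5757 probe sets above both floors, the pooled SD of log2 signal was 0.63 and the root mean square difference between the arrays 0.90, or 1.86-fold, which is called the typical difference below. A B cell identity was borne out by B cell markers, of which 9 of 9 were above the floor on both arrays, such as Cd22 with 4313 and 5302 (4807 ± 699, SD, n = 2). The list held Ighm but no gene for the IgD heavy chain, so the IgD part of the sort label was not examined. Levels of the B cell markers were not all alike on the arrays, since Cd79a gave 2931 on replicate 1 and 192 on replicate 2, and Cd74 gave 15712 and 7422. T cell markers were above it on both arrays in 0 of 10 cases, NK cell markers in 0 of 8 and B precursor markers in 0 of 7, while myeloid markers were above it in 5 of 13.

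Of the 9 receptor chain genes, 5 were above the floor on both arrays, a share of 55.6%, against 31.2% of all genes. These were Ifnar1, Il10rb, Il4ra, Ifngr2 and Il10ra, and they included at least 1 chain of the receptors for type I interferon, interferon γ, interleukin 10 and interleukin 4. On replicate 1 alone the count was 6 of 9, against 44.5% of all genes, and on replicate 2 alone 8 of 9, against 43.4% of all genes. A single floor is a looser mark, since 9 of the 52 genes of other organs passed that of replicate 1 and 7 that of replicate 2. Il21r was above the floor on replicate 1 only, and Il7r, Ifngr1 and Ifnar2 on replicate 2 only. Counted by probe set rather than by gene, 5 of 16 were above both floors, beside 5757 of all 22626 gene probe sets. Under a stricter floor, the 95th percentile, 3 genes were above it on both arrays, Ifnar1, Il10rb and Il4ra. In bulk samples such as these, expression by few cells and little RNA per cell cannot be told apart.

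**Figure D1:**
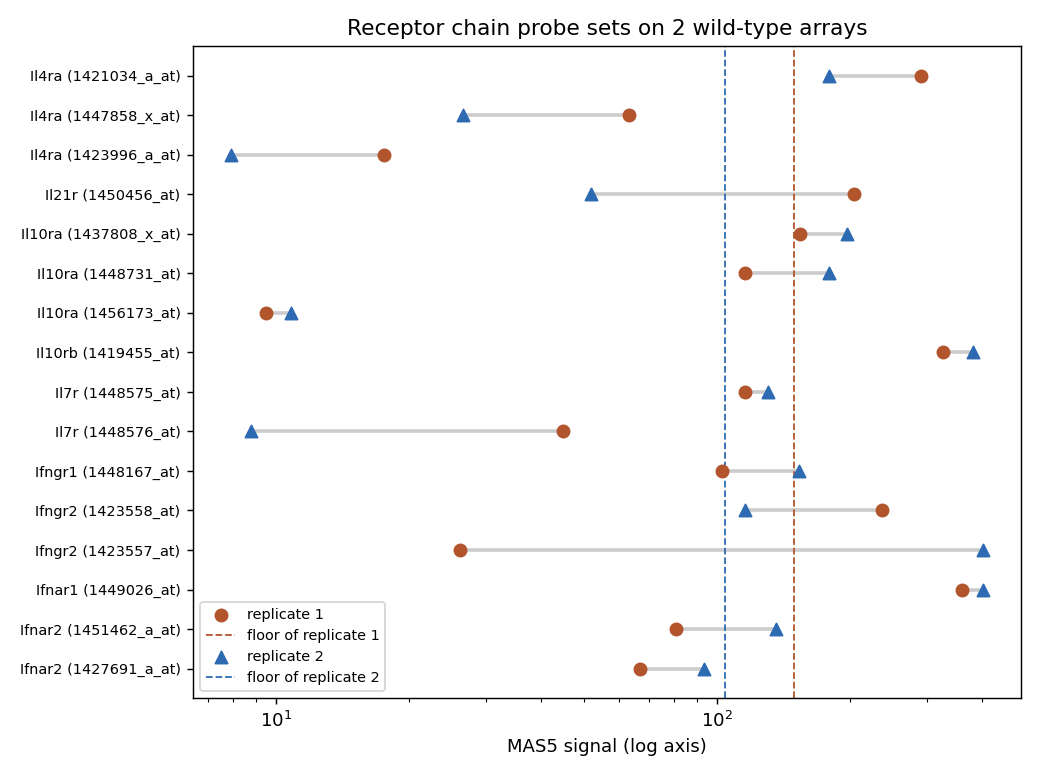
MAS5 signal (log axis) of the 16 probe sets of the receptor chains, with replicate 1 as circles, replicate 2 as triangles and the floor of each array as a dashed line in the same colour. Ifnar1 and Il10rb lie to the right of both floors with their 2 points close together, while the 2 probe sets of Ifngr2 run in opposite directions.

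The promoters of the members above the floor on both arrays that the sequence table held are shown as the regulatory context of the detected chains. They are RefSeq sequences of build GRCm38.p6, on the plus strand, from 250 bases before to 50 bases after the annotated start, and the capitals mark GC boxes (GGGCGG on either strand, overlapping matches included).
Ifnar1, chr16:91484965-91485264: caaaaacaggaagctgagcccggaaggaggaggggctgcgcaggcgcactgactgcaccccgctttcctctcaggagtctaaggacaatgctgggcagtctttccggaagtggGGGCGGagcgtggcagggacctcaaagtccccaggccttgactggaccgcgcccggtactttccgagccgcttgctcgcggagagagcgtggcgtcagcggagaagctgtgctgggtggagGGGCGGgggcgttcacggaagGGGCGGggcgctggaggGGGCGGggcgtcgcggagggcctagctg
Ifngr2, chr16:91546809-91547108: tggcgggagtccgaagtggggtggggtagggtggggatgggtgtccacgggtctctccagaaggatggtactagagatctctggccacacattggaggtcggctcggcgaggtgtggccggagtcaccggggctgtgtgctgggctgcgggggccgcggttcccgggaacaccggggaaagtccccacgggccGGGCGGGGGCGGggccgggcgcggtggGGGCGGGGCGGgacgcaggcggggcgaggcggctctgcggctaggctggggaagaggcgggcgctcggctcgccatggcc
Il4ra, chr7:125552021-125552320: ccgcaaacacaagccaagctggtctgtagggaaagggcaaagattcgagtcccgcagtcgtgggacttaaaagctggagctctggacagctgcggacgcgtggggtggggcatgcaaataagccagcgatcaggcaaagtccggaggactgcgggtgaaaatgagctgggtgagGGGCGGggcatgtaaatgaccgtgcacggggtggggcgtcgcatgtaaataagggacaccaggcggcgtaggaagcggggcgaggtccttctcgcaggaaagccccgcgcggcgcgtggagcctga

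The table held promoters of 8 of the 10 genes, without Il10ra and Il10rb. A GC box was present in 6 of the 8, with 4 matches in Ifnar1, 4 in Ifngr2 and 1 in Il4ra, and in 35.7% of 32851 promoters of the same length. The G and C content was 68.3% for Ifnar1, 74.3% for Ifngr2 and 62.0% for Il4ra, against a median of 52.7% over all promoters. Among the promoters not printed, it was also above that median for Ifngr1 (60.3%), Ifnar2 (57.0%) and Il21r (56.0%). It was below the median for Il2rg (50.3%) and Il7r (45.7%). The STAT-type motif TTCNNNGAA, searched on both strands, was found in 3 of the 8 promoters, those of Ifnar1, Ifnar2 and Il7r, and in 8.30% of all. The longer spacing TTCNNNNGAA was found in 1 of the 8, that of Ifngr2, and in 6.95% of all. In none of the 3 promoters printed did a STAT-type match share a base with a GC box. The CArG box, the motif bound by serum response factor, was found in 0 of the 8 promoters and in 1.63% of all. These matches describe letters in a short window and were not tested for binding.

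By position, 4 of the genes stand in a row on chromosome 16 in the RefSeq annotation, in the order Ifnar2, Il10rb, Ifnar1 and Ifngr2, with 0 other protein-coding genes between neighbours. Of this row, Il10rb, Ifnar1 and Ifngr2 passed both floors and Ifnar2 that of replicate 2 only. Il4ra and Il21r are likewise neighbours on chromosome 7, with 0 protein-coding genes between them, and only Il4ra was above the floor on both arrays. The other genes lie on chromosomes 9 (Il10ra), 10 (Ifngr1), 15 (Il7r) and X (Il2rg).

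The receptor for type I interferon was represented by Ifnar1, its signalling chain that holds the kinase TYK2, and Ifnar2, the chain with the higher ligand affinity that holds JAK1. Ifnar1 reached 359 on replicate 1 and 401 on replicate 2 (380.1 ± 30.0, SD, n = 2). It stood 2.40-fold over the floor on replicate 1 and 3.84-fold on replicate 2, and its log2 difference of 0.16 was well within the typical difference. Its place among all probe sets was alike on both arrays, at percentile 89.7 on replicate 1 and 89.5 on replicate 2. Ifnar2 had 2 probe sets. The first gave 80.7 and 136 on replicates 1 and 2, and the second 67.0 and 93.6, so that only 1 value of 4 was above the floor of its array. The first was higher on replicate 2 by 0.76 on the log2 scale, within the typical difference, with its signal on replicate 1 below the floor. The second was below both floors, and no order of the arrays was read from it. Both probe sets belong to a class (ending in _a_at) designed to match several transcripts of a gene, and mouse Ifnar2 is known to give soluble as well as membrane-bound forms, which these values do not separate.

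The interferon γ receptor pairs Ifngr1, the ligand-binding chain that holds JAK1, with Ifngr2, the signalling chain that holds JAK2. Ifngr1 was measured by 1 probe set, with 103 on replicate 1, below the floor, and 153 on replicate 2, above it (128 ± 35.6, SD, n = 2). The log2 difference of 0.57 was within the typical difference. Ifngr2 had 2 probe sets that the annotation assigns to the same source sequence, and they gave opposite orders of the arrays. By probe set 1423558_at the signals were 237 and 116 on replicates 1 and 2, above the floor on both, with replicate 2 lower by a log2 difference of -1.04, just beyond the typical one. By probe set 1423557_at they were 26.1 and 401, below the floor on replicate 1 and 3.84-fold over it on replicate 2. The log2 difference of 3.94 divides by a signal at 0.17 of its floor, and with that floor in its place replicate 2 was at least 2.69-fold higher. The mean over both probe sets was 1.45, so that the direction for Ifngr2 depends on the probe set, and no direction is given for the gene.

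Such a conflict was not rare on these arrays. Of the 5 receptor chain genes with several probe sets, 1 had a probe set over 2-fold higher on each array, namely Ifngr2, against 20.3% of all genes with several probe sets. With only probe sets above the floor of at least 1 array, it was 1 of 2 genes, against 12.7% of all such genes. The 3′ to 5′ signal ratio of the control mRNAs was higher on replicate 2. For Actb it was 3.57 on replicate 1 and 8.15 on replicate 2, although its 3′ to middle ratio was lower there, 4.23 on replicate 1 and 3.07 on replicate 2. For Gapdh the 3′ to 5′ ratio was 1.31 on replicate 1 and at least 7.89 on replicate 2, where the 5′ probe set did not reach the floor and the floor took its place. The 3′ to middle ratio of Gapdh was also higher on replicate 2, 1.08 on replicate 1 and at least 7.89 on replicate 2. There the middle probe set was likewise below the floor and replaced by it. The part of this in the differences between probe sets was not tested.

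The interleukin 10 receptor pairs Il10ra, the ligand-specific chain that holds JAK1, with Il10rb, which holds TYK2 and also serves receptors for interleukin 22 and interferon λ. Il10rb gave 326 and 380.5 on replicates 1 and 2 by its only probe set (353 ± 38.7, SD, n = 2), or 2.18-fold and 3.64-fold over the floors. The log2 difference was 0.22, within the typical difference, and the percentile was 87.8 on replicate 1 and 88.8 on replicate 2. Il10ra gave 155 and 198 by its brightest probe set, which passed the floor of replicate 1 by 1.03-fold only. That probe set is of the _x_at class, in which some probes also match other transcripts, and another of the plain class gave 116 and 179.5, below the floor on replicate 1. Both of these were higher on replicate 2, by 0.36 and 0.63 on the log2 scale. A remaining probe set of Il10ra gave 9.5 and 10.8, far below the floor on both arrays. Without _x_at probe sets, 4 genes of the set passed both floors, and Il10ra was not among them.

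**Figure D2:**
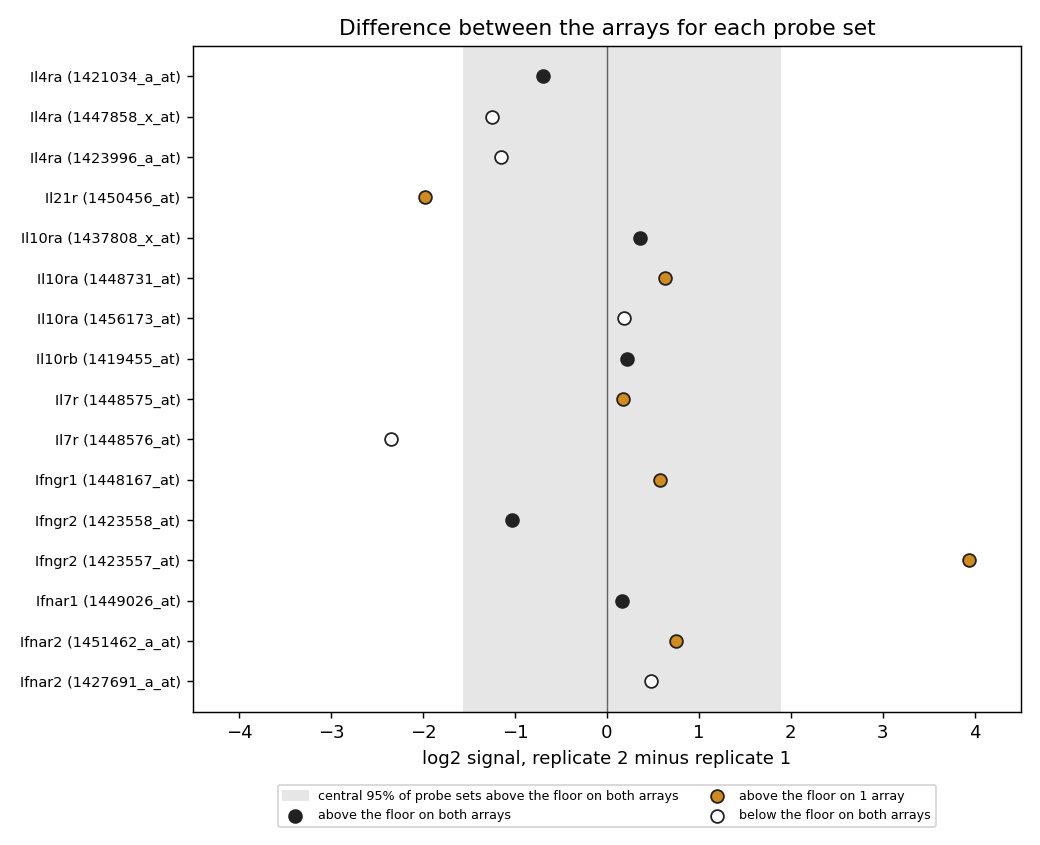
Log2 signal of replicate 2 minus replicate 1 for each of the 16 probe sets, filled black where above the floor on both arrays, orange where above it on 1 array and white where below it on both. The grey band is the central 95% of all probe sets that passed both floors, from -1.55 to 1.89, and the 5 black points lie inside it, while probe set 1423557_at of Ifngr2 lies far to the right at 3.94, with a signal below the floor on replicate 1.

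The chains that pair with the shared γ chain were Il4ra, Il21r and Il7r, each of which holds JAK1. Il4ra, which binds interleukin 4 and also forms a receptor for interleukin 13, gave 291 on replicate 1 and 179 on replicate 2 by its brightest probe set (235 ± 78.8, SD, n = 2). It was 1.95-fold and 1.72-fold over the floors, and its log2 difference of -0.70 was within the typical difference. The other probe sets of Il4ra, below the floor on both arrays, gave 63.1 and 26.5, and 17.6 and 7.9, and no order of the arrays was read from them. Centred on the array median, the difference by the brightest probe set became -0.06.

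Il21r, the chain specific for interleukin 21, gave 205 on replicate 1 and 51.9 on replicate 2 by its only probe set (128 ± 108, SD, n = 2). Replicate 2 was lower by 3.95-fold, a log2 difference of -1.98, but its signal there was under the floor, at 0.50 of it, and with the floor in its place replicate 1 was at least 1.96-fold higher. The difference was -1.47 after quantile normalization and -1.35 after centring on the array median. Il7r, the chain that binds interleukin 7 and, with Crlf2, thymic stromal lymphopoietin, gave 116 and 131, below the floor on replicate 1 and above it on replicate 2 (123 ± 10.6, SD, n = 2). Its second probe set, with 44.7 and 8.8, reached neither floor, so that detection of Il7r rests on 1 probe set and 1 array. Il7r also marks T cells and B cell precursors. Of these, the T cell receptor complex genes Cd3d, Cd3e and Cd3g had signals between 8.6 and 56.1 over both arrays, and the recombinase genes Rag1 and Rag2 between 3.6 and 49.6, all below the floors. Other genes of these lists passed 1 floor, Lat with 230.1, Cd5 with 157 and Cd93 with 174 on replicate 1, and Igll1 with 139 on replicate 2, the array on which Il7r was above its floor. The summed signal of the T cell list was 841 on replicate 1 and 250.0 on replicate 2, and of the precursor list 565 and 224. The part of such cells in the Il7r signal was not tested.

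Over the 16 probe sets, 10 (62.5%) were higher on replicate 2 and 6 on replicate 1, while 41.4% of all gene probe sets were higher on replicate 2. Beyond 2-fold the split ran the other way, with 1 probe set higher on replicate 2 and 5 on replicate 1. These are 6.25% and 31.3%, beside 19.3% and 34.5% of all gene probe sets. The 5 higher on replicate 1 include the dimmer probe sets of Il4ra and Il7r, which were below both floors. In all, 5 of the 16 probe sets reached neither floor, so no direction is read from these splits. Of the 5 genes above the floor on both arrays, 4 differed by less than 2-fold by their brightest probe set. The exception was Ifngr2, by a probe set 2.05-fold higher on replicate 1 that its other probe set contradicts, so it counts for no direction. By brightest probe sets, replicate 1 was more than 2-fold higher in 9.16% of all genes above the floor and replicate 2 in 15.4%. The mean over all probe sets, those below both floors included, put Ifngr2 more than 2-fold higher on replicate 2 and Il4ra on replicate 1. The brightest probe set of Ifngr2 came within 2-fold after quantile normalization, at -0.73, and after median centring, at -0.40. Median centring also changed the split of all genes over 2-fold apart, to 1442 higher on replicate 2 and 68 on replicate 1, against 595 and 354 as deposited. The median log2 difference of the 5 genes was 0.16, beside 0.08 over all 3866 genes above the floor on both arrays. Ifnar1, Il10rb and Il10ra were a little higher on replicate 2 and Il4ra lower, all within the typical difference, and with quantile normalization Ifnar1 fell on the other side of 0, at -0.02.

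Of the other chains of these receptor families, 26 of class I and 1 of class II (F3, the tissue factor gene) were measured. Of these 27 genes, 3 were above the floor on both arrays, Crlf2, Il27ra and Il6ra, against 31.2% of all genes, and 15 were above it on neither. Crlf2, which pairs with Il7r in the receptor for thymic stromal lymphopoietin, gave 773 and 901 on replicates 1 and 2 (837 ± 90.3, SD, n = 2). Il27ra, the specific chain of the interleukin 27 receptor, gave 165 and 334, a log2 difference of 1.01, and Il6ra, the interleukin 6 binding chain, 239 and 158. Chains of further receptors that use the shared γ chain were below the floor on at least 1 array. Il2ra gave 189 and 20.4, Il15ra gave 229 and 29.7, and Il2rb gave 76.4 and 85.2, below the floor on both. Il9r gave 21.7 and 35.1, and Il13ra1, the partner of Il4ra in the second type of interleukin 4 receptor, 116 and 65.1, each below both floors. In all, 6 of the 27 were above the floor on replicate 1 and had no probe set above it on replicate 2.

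**Figure D3:**
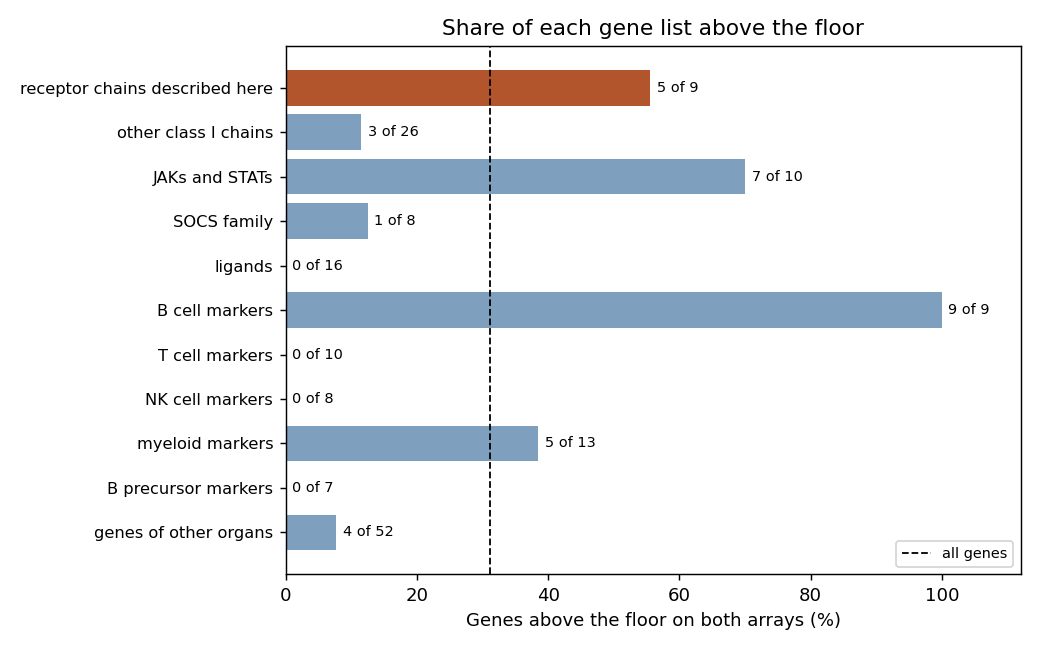
Share of the measured genes of each list that were above the floor on both arrays, with the counts beside the bars and the share of all genes, 31.2%, as a dashed line. The receptor chains described here stand at 5 of 9 and the other class I chains at 3 of 26, and the ligand, T cell, NK cell and B precursor lists have none.

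Downstream of the chains, 7 of 10 measured JAK and STAT genes were above the floor on both arrays. All kinases held by these chains were among them, Jak1 with 1027 and 671 on replicates 1 and 2, Jak2 with 321 and 704 by its brightest probe set, Jak3, the partner of the shared γ chain, with 273 and 124, and Tyk2 with 158 and 256. The other probe set of Jak2 gave 264 and 131, the opposite order of the arrays. Further probe sets of Jak1 gave 521 and 516, nearly alike, and 158 and 262, also the opposite order. Stat4, used by interleukin 12 and type I interferon, gave 150.1 and 1064, a log2 difference of 2.83. On replicate 1 Stat4 only just passed the floor of 149. Stat6, the factor used by interleukin 4, gave 328 and 595, and Stat3, used by interleukins 10 and 21, 358 and 132. Of the SOCS family of feedback inhibitors, 1 of 8 genes was above the floor on both arrays, Cish with 328 and 115. Of 16 measured ligand genes 0 were above it on both arrays. Il4 and Ifnb1 were above it on replicate 1 only. Il4 gave 262 and 5.5 on replicates 1 and 2, and Ifnb1 gave 177 and 9.7.

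Myeloid cells carry several of the same chains, among them those of the interferon γ and interleukin 10 receptors. Of the 13 measured myeloid markers, Csf1r gave 286 and 249 on replicates 1 and 2 by its brightest probe set. Its other probe sets gave 23.2 and 96.7, and 209 and 15.2, so neither passed both floors. Lyz2 gave 291 and 178, Ngp 327 and 187, S100a8 164 and 449.9 and S100a9 205 and 229.9. Itgax, with 148 and 110, passed the floor of replicate 2 only. Itgam, Cd68, Mpo and Elane were below both floors, with signals between 4.9 and 59.1. Cd14, Adgre1 and Fcgr1 were also below both, Adgre1 only just on replicate 1. The summed signal of the list was 1879 on replicate 1 and 1695 on replicate 2, and its part in the receptor chain signals was not tested.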

How the data were processed

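RNA from sorted splenic B cells was measured on 2 wild-type arrays. The deposited values are MAS5 signal intensities on a linear scale, per the submitters' processing notes, and the version and parameters are not given in the sources used here. The mean after trimming 2% at each end was 150.0 and 150.1, so each deposited column had been scaled to a common target. The number of arrays limits the precision.

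Of 22690 rows, 64 control probe sets were left out, and 20380 probe sets named 1 gene, 691 several and 1555 none here. All 16 receptor chain probe sets kept their symbol when matched by Entrez identifier to RefSeq (GRCm38.p6). The floor rests on 83 probe sets of 52 genes of other organs. Differences are log2 signals without further normalization. With 1 group of 2 arrays no p-value was computed, and detection calls were not used here. Every member and each of its probe sets was named. Of the other lists the rule named those that passed both floors, at most 6 per list. Further genes (partner chains, Jak3, ligands above 1 floor, sex-linked genes and markers) were chosen after their values were seen. The members and lists were chosen with earlier results of these data known. Python 3.11.15, numpy 2.4.6, pandas 2.3.3, scipy 1.17.1 and matplotlib 3.10.9 were used, and the calculations were tested on simulated data. The alternatives were other floors, quantile normalization, median centring, log2(signal + 32), leaving out _x_at probe sets, means over probe sets, and single arrays.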

Additional observations from a re-analysis of the deposited data

How the results depend on the processing

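The number of receptor chain genes above the floor on both arrays was 5. It was 3 with a 95th percentile floor, 6 with a floor at the array median, 4 without _x_at probe sets and 5 after quantile normalization. Median centring, log2(signal + 32) and the means over probe sets change no call against the floor, so there the number was 5 by construction. On single arrays the number was between 6 (without replicate 2) and 8 (without replicate 1). The number of these genes over 2-fold apart was 1, Ifngr2. It became 0 under 4 alternatives, log2(signal + 32), quantile normalization, median centring and the 95th percentile floor, and 2 with no floor (Ifngr2 and Il21r) or with the mean over all probe sets (Ifngr2 and Il4ra). The median difference of 0.16 ranged from -0.27 without _x_at probe sets to 0.79 with median centring, which itself moved the median of all genes above the floor from 0.08 to 0.71, and it was -0.02 after quantile normalization. Of 77 recomputed differences of single genes, 75 moved by less than the pooled SD. Changing or dropping the floor could not move a difference, since the brightest probe set does not depend on it. Median centring moved every gene by the same amount, Ifnar1 from 0.16 to 0.79, only just less than the pooled SD of 0.63. The count of 75 is therefore no measure of stability. The log2 difference of Ifngr2 turned from -1.04 to 1.45 with the mean over all probe sets, since its probe sets oppose each other, and that of Il7r moved from 0.18 to -1.08 with the same mean, through a probe set below the floor on both arrays. Over all genes above the floor, 595 exceeded 2-fold in favour of replicate 2 and 354 in favour of replicate 1, against 406 and 359 after quantile normalization and 1442 and 68 after median centring. No paired analysis was possible because the samples form 1 group. With no floor there is no count of genes above it.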
